A study of Mus musculus with 6 samples.

Results

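The miR-378 family was described in 1 mouse liver small RNA library. Its members were chosen by name, as the distinct mature sequences of the table listed for mouse as miR-378a, on either arm, miR-378b, miR-378c or miR-378d. This gave 5 of the 1963 distinct mouse sequences: mmu-miR-378a-3p, mmu-miR-378a-5p, mmu-miR-378b, mmu-miR-378c and mmu-miR-378d. Entries of other species named miR-378, with any letter, were used as records of other ends or other bases. The table held 62 such entries from 23 other species codes, with 29 sequences that are not a mouse entry. The study asked how a gene delivery vector affects liver microRNAs (miRNAs). Mice of both its groups received adeno-associated virus of serotype 9 (AAV9), in which the Tnnt2 promoter, from the cardiac troponin T gene and active mainly in heart muscle, drives Cre recombinase. Vectors of the Cre-miR122 group (AAV-Tnnt2-Cre-miR122) held in addition a miR122 element, and those of the Cre group (AAV-Tnnt2-Cre) lacked it. Whether that element encodes miR-122 or holds sites for it is not said in the labels, which likewise name no strain, age, dose or time. Of 3 libraries labelled in each group, the values are from Cre-miR122 replicate 2. The remaining 5 were not analysed here, so no difference between groups was tested.

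A miRNA is cut from a hairpin precursor, which can give a mature strand from its 5′ side (5p) and another from its 3′ side (3p). The strand that is retained guides Argonaute proteins to messenger RNAs, largely through its seed, bases 2 to 8. miR-378a is made from an intron of Ppargc1b, the gene of PGC-1β, a coactivator of genes of mitochondrial energy production and of fat synthesis. It is known from liver, muscle and brown fat and has been linked to lipid and mitochondrial metabolism. miR-378b, miR-378c and miR-378d are annotated at other loci and carry similar mature sequences.

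The mature sequences of miR-378b, miR-378c and miR-378d are shown because the family differs by its first base, by 1 seed base and by its last bases. They come from RefSeq on GRCm38.p6, where 3 of the 5 members were matched, and are written 5′ to 3′ with the seed in capitals.
mmu-miR-378b, chr11:88352839-88352858, plus strand: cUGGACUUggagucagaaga
mmu-miR-378c, chr14:46954905-46954925, minus strand: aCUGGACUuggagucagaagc
mmu-miR-378d, chr10:126710355-126710376, minus strand: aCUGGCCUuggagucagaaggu
Positions below are counted from 1 at the 5′ end of miR-378c, and changes are written with T for U. miR-378d differs from miR-378c by A6C, inside the seed, and by C21G, and is 1 base longer. miR-378b starts at base 2 of miR-378c and carries C21A, so its seed is shifted by 1 base. miR-378a-3p shares its first 20 bases, and so its seed, with miR-378c and differs from it at the last base alone. No other mouse sequence of the table carried this seed.

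The hairpins of these 3 members differ in where the mature sequence lies, shown here with the mature sequence in capitals.
Mir378b, chr11:88352773-88352864, plus strand: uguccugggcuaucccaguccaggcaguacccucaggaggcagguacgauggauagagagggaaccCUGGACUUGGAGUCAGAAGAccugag
Mir378c, chr14:46954830-46954928, minus strand: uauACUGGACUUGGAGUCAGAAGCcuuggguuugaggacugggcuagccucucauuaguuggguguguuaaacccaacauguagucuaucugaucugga
Mir378d, chr10:126710282-126710391, minus strand: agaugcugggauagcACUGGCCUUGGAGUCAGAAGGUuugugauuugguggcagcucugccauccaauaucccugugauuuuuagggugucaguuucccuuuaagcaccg
miR-378b lies at bases 67 to 86 of its 92-base hairpin, toward the 3′ end. miR-378c lies at bases 4 to 24 of 99 and miR-378d at bases 16 to 37 of 110, both toward the 5′ end. In the GENCODE M21 annotation Mir378b lies in an intron of Msi2 and Mir378c in an intron of Samd4, each on the strand opposite to that gene. Mir378d lies in no other annotated gene.

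Mir378a (ENSMUSG00000105200.1) is a hairpin of 66 bases at 61397835 to 61397900 of chromosome 18 (GRCm38), minus strand. It lies in an intron of Ppargc1b (61298136 to 61400431, same strand), and a further annotated miRNA gene, Gm25301, covers it on the opposite strand. miR-378a-5p spans 61397875 to 61397896 and miR-378a-3p spans 61397838 to 61397858. Folded by free-energy minimisation, the Mir378a hairpin had -0.583 kcal/mol per base, more stable per base than 95.6% of the 2201 mouse hairpins folded, whose median was -0.369. The hairpin of miR-378b had -0.338, that of miR-378d -0.318 and that of miR-378c -0.273 kcal/mol per base, all less stable than the median hairpin. In the predicted fold 18 of the 21 bases of miR-378a-3p were paired, against 15 of 20 in miR-378b, 15 of 21 in miR-378c and 13 of 22 in miR-378d. Of the family's hairpins, Mir378a was thus the most stable per base in prediction. It is also the shortest as annotated, at 66 bases against 92, 99 and 110, which affects values per base. As whole hairpins Mir378a had -38.5 and Mir378d -35.0 kcal/mol. A link of stability to reads was not tested. These folds are predictions from sequence and were not measured.

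The library held 8163802 reads over all distinct sequences of the table, of which 6661069 were counted for mouse entries. Of the mouse sequences 546 (27.8%) had a read, with a median of 18 reads among these. The liver label was checked against markers. Of 6 hepatocyte miRNAs, 5 had a mouse entry, all 5 had reads, and they held 62.6% of mouse reads. Most of that share was 1 miRNA, miR-148a-3p, with 3856275 reads or 57.9% of mouse reads. Next came miR-122-5p with 236027 reads or 3.54%, and the lowest was miR-802-5p with 32. miRNAs of striated muscle and heart, tissues that also express miR-378a, held 15.8%, with reads for 6 of 7. miR-1a-3p led them with 980271 reads, 14.7% of mouse reads, followed by miR-206-3p with 68854. Further down by mouse entries, miR-133a-3p had 915 reads, miR-499-5p 251, miR-133b-3p 20 and miR-208b-3p 6. Adding entries of other species that record other ends of the same arm (end forms), miR-133a-3p had 12773 reads and miR-133b-3p 1186. On that count miR-499-5p had 370 and miR-208b-3p 9. Without end forms shared between mouse sequences, miR-133a-3p had 11609 and miR-133b-3p 22. miR-208a-3p, a heart miRNA, was at 0. Brown fat miRNAs held 0.0149%, with reads for 5 of 5. Of their 994 reads miR-203-3p had 899, and each other member had from 1 to 36. The part of muscle or other cells in the reads of miR-378a was not tested. All intervals in parentheses are exact 95% intervals and cover the counting error of reads only, since there is 1 library and PCR copies of a molecule count as separate reads.

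Nearly all reads of the family's mouse entries were of miR-378a-3p, 1 strand of the Mir378a hairpin. miR-378a-3p held 60512 reads, 0.908% of mouse reads (0.901 to 0.916), and ranked 13 among mouse sequences. miR-378a-5p, the other strand of that hairpin, held 168 reads, 0.00252% (0.00216 to 0.00293), and ranked 140. miR-378b held 10 reads, 0.00015% (7.2e-05 to 0.000276). miR-378c held 8 reads, 0.00012% (5.19e-05 to 0.000237), and miR-378d held 0 reads, which allows a share of up to 4.5e-05%, taking 3 reads as the floor. The 5 members together held 60698 reads or 0.911% of mouse reads (0.904 to 0.918). miR-378a-3p made up 99.7% of this sum and the other 4 members 186 reads.

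**Figure D1:**
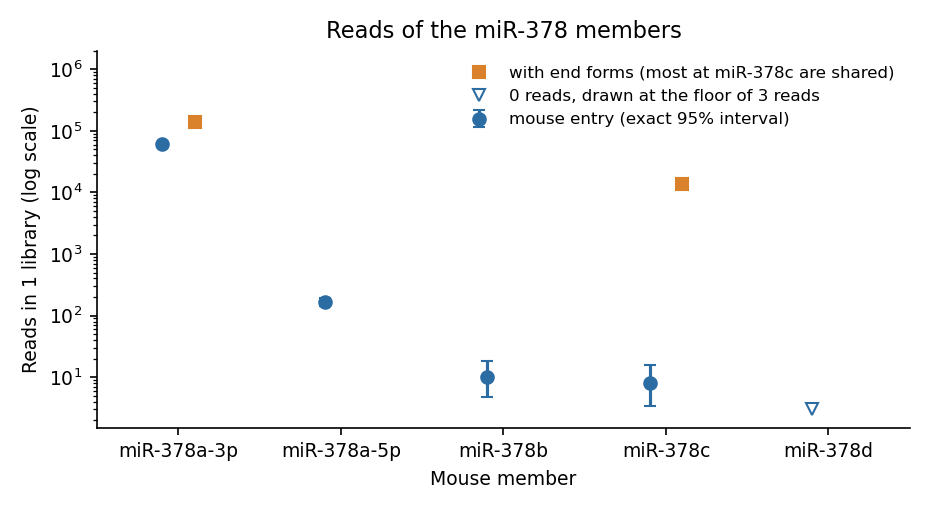
Reads of each miR-378 member in the library, on a log scale. Circles are the reads of the mouse entry with exact 95% intervals, squares add reads of end forms, and the open triangle marks a member at 0 reads, drawn at 3 reads. miR-378a-3p stands at 60512 reads, miR-378a-5p at 168, and miR-378b and miR-378c at 10 and 8. All 13545 reads added at miR-378c are of forms that are also in the Mir378a hairpin.

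The levels of miR-378b and miR-378c did not differ beyond counting error, at 1.25 to 1 (0.444 to 3.64). miR-378a-5p exceeded miR-378b 16.8 to 1 (8.91 to 35.7). Next above miR-378a-3p in the order of mouse entries stood miR-27b-3p with 60863 reads and miR-206-3p, a skeletal muscle miRNA, with 68854. Next below stood miR-126a-3p, of endothelial cells, with 59356 and miR-127-3p with 46251. The reads of miR-27b-3p were within counting error of those of miR-378a-3p, at 1.01 to 1 (0.995 to 1.02), whereas miR-378a-3p exceeded miR-126a-3p 1.02 to 1 (1.01 to 1.03). miR-378a-5p tied with miR-194-2-3p at 168 reads, below miR-543-3p with 175 and above miR-361-3p with 166 and miR-744-5p with 163.

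The mouse entry of miR-378a-3p held less than the entry 1 nt longer, and other ends of the arm were counted for entries of other species. Every form below starts at the first base of miR-378a-3p. The mouse entry, 21 nt long, held 60512 reads, which is 44.0% of the 137384 reads of the arm (43.8 to 44.3). A form 1 nt longer, the human entry and that of 15 other species, held 63219 reads or 46.0% (45.8 to 46.3). The 22-nt form thus exceeded the mouse entry 1.04 to 1 (1.03 to 1.06), a small excess that is beyond counting error. A 20-nt form, a gibbon entry, held 12050 reads or 8.77% (8.62 to 8.92). An 18-nt form, an orangutan entry, held 1495 reads or 1.09%. A 23-nt form, a gorilla entry, held 107 reads or 0.0779%. The 21-nt and 22-nt forms together held 90.1% of the arm (89.9 to 90.2). A 19-nt form has no entry of its own, so its level is unknown.

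**Figure D2:**
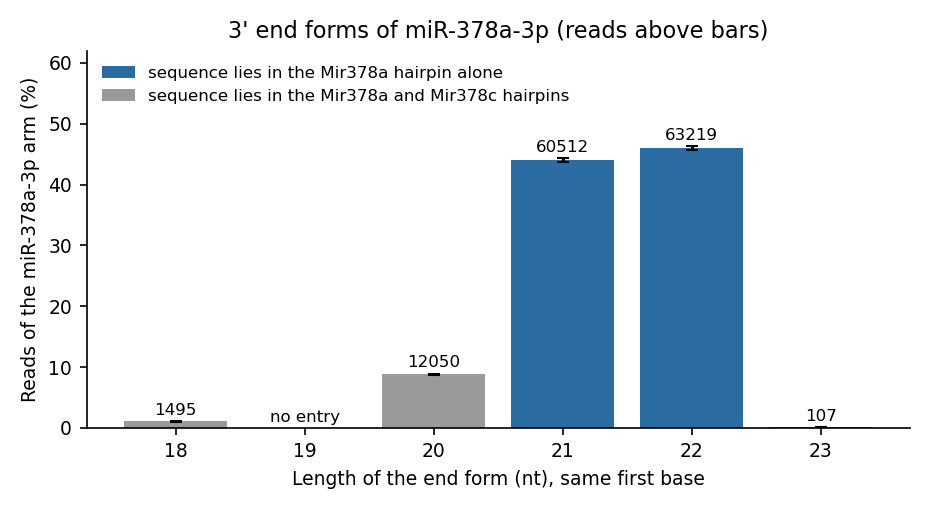
Share of the miR-378a-3p arm held by each end form that starts at the same base, by length, with exact 95% intervals and the reads above each bar. Blue bars are sequences found in the Mir378a hairpin alone and grey bars those also found in the Mir378c hairpin. The 21-nt and 22-nt forms hold 44.0% and 46.0%, and the 23-nt form 0.0779%.

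The 3′ end was sharply bounded on its far side. From 22 to 23 nt the reads dropped 591 to 1 (489 to 721). Among 22 mouse arms with at least 1000 reads and entries both 1 and 2 nt longer than the mouse entry, the second held a median of 15.9% of the reads of the first, from 0.0278% to 1731%. For miR-378a-3p it was 0.169%, and 1 of these arms was lower. The ratio of the form 1 nt longer to the mouse entry, 1.04, was above that of 36 of 52 arms that have such an entry and below that of 15, with a median of 0.200. Its neighbours in this order were miR-122-5p with 0.817 and miR-409-5p with 0.889 below, and miR-101a-3p with 1.08 and miR-30a-5p with 1.20 above. In the share held by the mouse entry, 38 of 97 arms with at least 1000 reads were lower than miR-378a-3p and 58 were higher. There the neighbours were miR-126a-3p with 44.0% and miR-181a-5p with 39.5% below, and miR-191-5p with 45.4% and miR-30a-3p with 45.5% above. The 38 lower arms include miR-378c, which reached 1000 reads only through 13545 reads also counted for miR-378a-3p. With forms of 1 mouse sequence alone, the share of miR-378a-3p was 48.9%, and 41 of 95 arms were lower and 53 higher. These comparisons depend on which ends other species' entries happen to record.

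The first base could be examined in 1 pair of entries only. A 24-nt bat entry starts 1 nt earlier than miR-378a-3p and ends where the 23-nt form ends. It held 1 read against 107, so 99.1% of the 108 reads with that end (94.9 to 99.98) began at the first base of the mouse entry. The seed shifted by 1 base was carried by miR-378b, with 10 reads, and by a cattle entry of 22 nt that lies in the Mir378b hairpin and held 0 reads. miR-378a-5p had 0 end forms among the entries of other species. Over all 34 distinct sequences named miR-378, 138636 of 138850 reads, 99.8%, carried the seed that miR-378a-3p and miR-378c share.

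Part of the reads could not be assigned to 1 locus. The 18-nt and 20-nt forms are the beginning of miR-378c as well as of miR-378a-3p, so their 13545 reads, 9.86% of the arm (9.70 to 10.02), fit the Mir378a and Mir378c hairpins equally. The forms found in Mir378a alone held 123839 reads, and 8 reads were of the form found in Mir378c alone. Counting only forms of 1 locus, the mouse entry held 48.9% of the miR-378a-3p arm (48.6 to 49.1). With all end forms miR-378a-3p held 1.71% of the reads of mouse entries and end forms (1.70 to 1.72) and ranked 7, between miR-143-3p with 162854 reads and miR-126a-3p with 134932. Without the shared forms it held 1.54% and ranked 8.

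Several entries of other species differ from a miR-378a-3p form of the same length by 1 base and lie in no annotated mouse hairpin. The highest changed form by reads was 21 nt long and carried C21T against miR-378c, a cattle and pig entry, with 870 reads. That is 1.42% of its reads and those of the mouse entry (1.33 to 1.51). The same sequence is also the 20-nt form with 1 added T, and as a share of itself and the 20-nt form it was 6.73% (6.31 to 7.18). A 20-nt form with G20A, a human entry, held 342 reads, 2.76% of its reads and those of the unchanged 20-nt form (2.48 to 3.06). An 18-nt form with A18G held 1 read against 1495. The source of these changed last bases was not tested.

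Changes at inner positions were rarer than C21T and G20A. C2G held 28 reads or 0.0463% (0.0307 to 0.0668), and T9A held 30 reads or 0.0496% (0.0334 to 0.0707), both against the 21-nt form. G4T held 6 reads or 0.00949% against the 22-nt form. T14C held 2 reads and A6G held 1 read against the 20-nt form. Over the 5 inner changes the shares ran from 0.0083% to 0.0496%, so both C21T and G20A lay above all of them, beyond the intervals. The 15 further entries outside mouse hairpins, which differ by more bases or have no unchanged form of their length, held 0 reads.

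The 8 reads of miR-378c fell within the range of these inner changes. Read as a last-base change of miR-378a-3p, they were 0.0132% of both (0.00571 to 0.026), a value between those of G4T and T14C and inside the intervals of both. The form with C21T had 109 reads per read of miR-378c (54.9 to 253). Reads of the Mir378c hairpin and changed reads of miR-378a-3p cannot be told apart at this count.

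**Figure D3:**
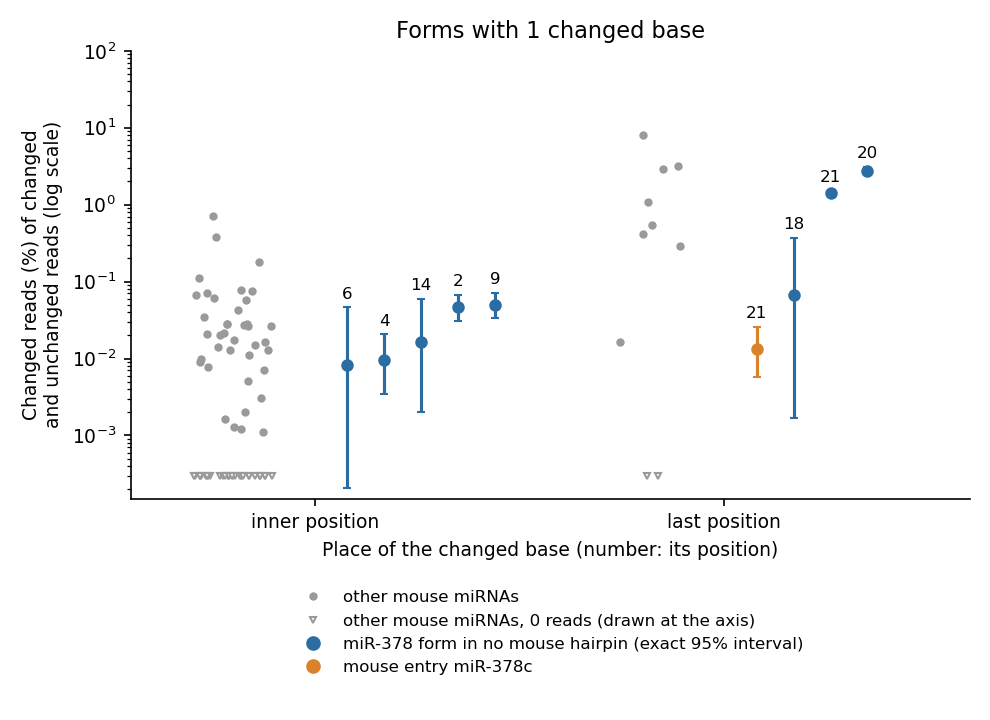
Reads of forms with 1 changed base, as a percentage of changed and unchanged reads, on a log scale. Blue points are miR-378 forms in no mouse hairpin and the orange point is the mouse entry miR-378c, with exact 95% intervals and the changed position. Grey points are other mouse miRNAs, with open triangles for 0 reads. The last-base forms at positions 20 and 21 stand at 2.76% and 1.42%, and miR-378c at 0.0132%, among the inner changes.

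The same measure was set beside other mouse sequences with at least 1000 reads. Of 10 last-base changes of other miRNAs, the shares ran from 0% to 7.93% with a median of 0.474%, and 3 were above the 1.42% of C21T. Those 3 were changes of miR-1a-3p with 7.93%, miR-126a-3p with 3.16% and miR-206-3p with 2.89%. Of 70 inner changes of other miRNAs, 31 had 0 reads, the median was 0.00182% and the highest was 0.721%. C2G and T9A in miR-378a-3p were below 10 of these 70. Which changes can be counted depends on the entries of other species, so no rate per position follows from these values.

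The 3p strand of miR-378a had far more reads than the 5p strand. By mouse entries there were 360 reads of miR-378a-3p per read of miR-378a-5p (310 to 422). Over the 118 hairpins with both arms annotated and at least 100 reads on the higher arm, the 3p arm was higher in 57 and the 5p arm in 61. The ratio of the higher to the lower arm was lower than that of miR-378a in 58 and higher in 59, of which 35 had 0 reads on the lower arm. The arm ratio of miR-378a thus stood at the middle of this order. Below it were miR-17 with 181 and miR-30d with 287, and above it miR-541 with 369 and miR-532 with 384. The order depends on depth, since no ratio with a read on the lower arm can exceed the reads of the higher arm. Among 54 hairpins with at least 1000 reads on the higher arm, 22 were lower than miR-378a and 31 were higher. With end forms the ratio was 818 (703 to 957), above 85 of 138 hairpins. The 3p arm has 5 end forms among the entries and the 5p arm has 0, so this ratio adds reads to 1 arm only.

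**Figure D4:**
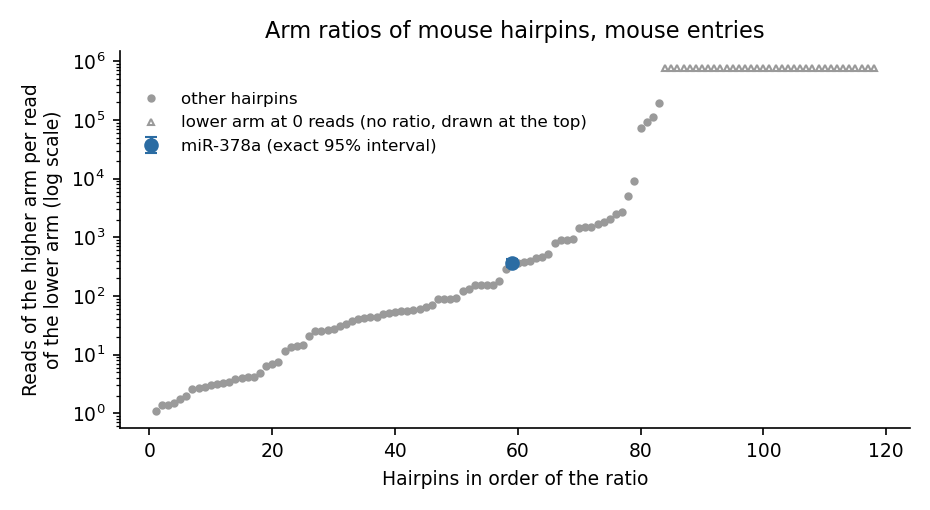
Reads of the higher arm per read of the lower arm, on a log scale, for 118 mouse hairpins placed in order of the ratio. The blue point is miR-378a at 360 with its exact 95% interval, grey points are other hairpins, and open triangles are 35 hairpins whose lower arm had 0 reads. miR-378a lies near the middle of the order.

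miR-378a-3p was among the highest of a list of miRNAs taken to lie in introns of protein-coding host genes. The list of 31 miRNAs, both arms, held 66 sequences, of which 50 had reads, with a median of 35.5 reads. Over all mouse sequences 27.8% had a read, so the median there was 0. Since the list was chosen with earlier results of these data known, this contrast is no result about intronic miRNAs. The annotation has 27 of the 31 in a same-strand intron of the named gene, Ppargc1b for miR-378a included. The other 4 are miR-126a, miR-140, miR-25 and miR-93. miR-126a, whose named host is Egfl7, lies there in an intron of Gm20532 only, and its 3p strand held 59356 of the 242716 reads of the list. By mouse entries miR-26a-5p, from introns of Ctdsp genes, led the list with 78540 reads, followed by miR-378a-3p, miR-126a-3p and miR-152-3p, from Copz2, with 8653. With end forms miR-378a-3p led with 137384 reads, ahead of miR-126a-3p with 134932 and miR-26a-5p with 94134. That first place rests on the forms shared with Mir378c: without them miR-378a-3p had 123839 reads and was at place 2, below miR-126a-3p, whose count was the same. miR-378a-3p made up 24.9% of the mouse-entry reads of the list, and miR-378a-5p stood at place 23. The list held 3.64% of mouse reads (3.63 to 3.66). Host gene messenger RNAs, Ppargc1b included, were not measured.

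**Figure D5:**
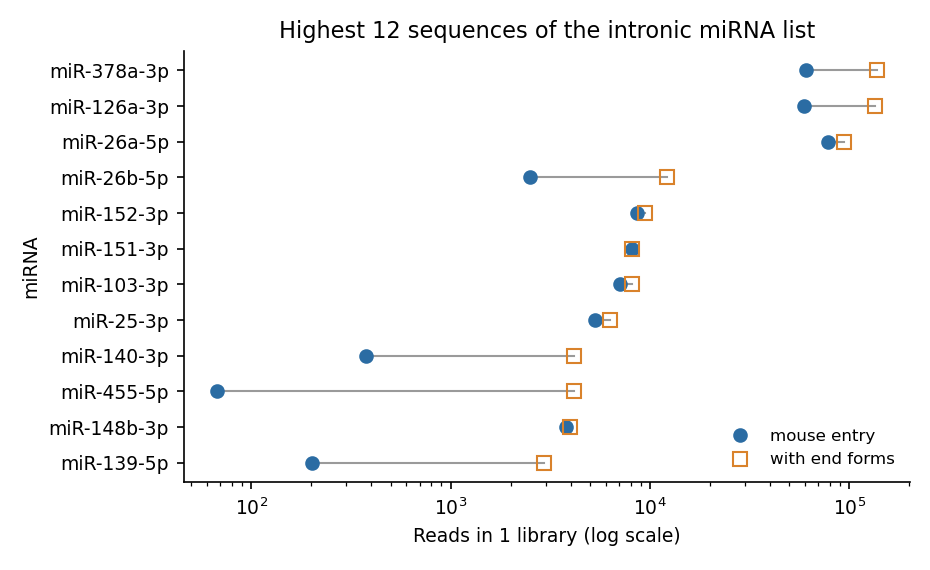
Reads of the 12 highest sequences of the intronic miRNA list, on a log scale. Circles are reads of the mouse entry and open squares add end forms. miR-378a-3p and miR-126a-3p pass miR-26a-5p once end forms are added. The square of miR-378a-3p, at 137384, includes 13545 reads that fit Mir378c equally, and without them it is below miR-126a-3p.

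Among 25 miRNAs linked to lipid, glucose or mitochondrial metabolism, 24 had reads, with a median of 2876. Over all mouse sequences 27.8% had a read and the median was 0. This list, mostly of main arms, was also chosen with earlier results of these data known. The contrast is thus no result about metabolic miRNAs. The list held 69.3% of mouse reads, led by miR-148a-3p, miR-122-5p, miR-143-3p with 135826 reads and miR-26a-5p. miR-378a-3p was at place 8 by mouse entries, with 1.31% of the reads of the list, and at place 4 with end forms. miR-378a-5p was at place 15. By mouse entries miR-122-5p, the miRNA that the vector element is named after, had 3.90 reads per read of miR-378a-3p (3.87 to 3.94). With end forms the counts were 685102 and 137384, a higher ratio. The mouse entry held 34.5% of the miR-122-5p arm and 44.0% of the miR-378a-3p arm. The 5 hepatocyte miRNAs with an entry are also on this list.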

How the data were processed

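Total RNA of liver was ligated to adapters, amplified by PCR, size-selected and sequenced as single reads, per the labels' protocols. The deposited file holds raw counts of reads per mature miRNA entry in 1 library, 8163802 reads over distinct sequences. The submitters' processing notes name mm10. The counting program is not given in the sources used here. Ligation and PCR can favour some sequences, so reads are not molecules.

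Each distinct sequence was counted once. Since the 22-nt form had more reads than the 21-nt entry inside it, counts of nested entries were taken as separate. End forms are entries of other species lying in one of 2202 GENCODE M21 hairpins (GRCm38, the mm10 assembly) that overlap a mouse sequence the most, by at least 15 nt. Intervals are exact Clopper-Pearson at 95%, and ratios use the binomial given both counts. Named are the members, other-species entries with at least 100 reads, neighbours in each order and the 4 highest of each list. Changed forms under 100 reads, and the other miRNAs set beside C21T, were named after their values were seen. The members and lists were chosen with earlier results of these data known. Tests between groups planned for several libraries were not run. Folds were computed with ViennaRNA 2.7.2, intervals with SciPy 1.17.1, tables with pandas 2.3.3 and NumPy 2.4.6 and figures with matplotlib 3.10.9, under Python 3.11.15, and the scripts were tested on simulated data.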

Additional observations from a re-analysis of the deposited data

How the results depend on the processing

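All values rest on 1 library, and the share of miR-378a-3p depends on the total and on the ends that are counted. With the total over all distinct sequences miR-378a-3p held 0.741% and the 5 members 0.744%, and without miR-148a-3p in the total 2.16% and 2.16%. With end forms miR-378a-3p held 1.71%, and 1.54% when forms shared with Mir378c were left out, a choice made after seeing the data. All entries named miR-378 held 1.70% of all reads. The arm ratio of 360 became 818 with end forms and 737 without the shared ones. The mouse entry's share of its arm, 44.0%, became 43.7% when last-base changes were added and 48.9% without the shared forms. C21T, 1.42% against the mouse entry, was 0.633% of the arm and 6.73% against the 20-nt form. Among the intronic list, miR-378a-3p was at place 1 with end forms and at place 2 without the shared ones. With end forms the intronic list held 5.44% and the metabolic list 66.5% of reads. Each such alternative adds or removes reads by its construction. Of 21 further values under an alternative, 8 were labelled as moved and 13 were not. The 8 include the share of hairpins with a lower arm ratio, 49.2% and with end forms 61.6%, which has no interval here. Those 13 include every value of miR-378d, which had 0 reads and so could not move. They also include ranks and a median, for which no interval is given here, so the count is no measure of stability. miR-378c is the member whose level depends most on counting, at 0.00012% by its entry and 0.168% with the shared forms. Depth limits miR-378b, miR-378c and miR-378d. Comparisons of groups, other test tools, filters and leaving out replicates were not run. No paired analysis was possible because only 1 library was used, and no replicate number occurs in both groups.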
